A study of Bos taurus with 18 samples.

Results

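The genes described here are 42 DNA replication genes of the bovine blastocyst, from the origin recognition complex that marks where replication starts to the enzymes that make its nucleotides. They were chosen by symbol: 44 genes were listed and every probe carrying one of those symbols in the array's probe-to-gene table was taken. That gave 71 probes of 42 genes, of which 70 probes were bright enough to keep, and all 42 genes entered the fit among 34283 features (14549 named genes and 19734 probes without a symbol). GINS2 and RFC1 were not analysed here. The array uses older symbols for 6 of the genes, so ORC1L, ORC2L, ORC3L, ORC5L, ORC6L and CDC45L are the genes now called ORC1, ORC2, ORC3, ORC5, ORC6 and CDC45.

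The study measured RNA of cattle embryos made by in vitro fertilisation, on 18 one-colour bovine arrays in 6 groups of 3. Embryos of the groups day6, day7 and day8 were collected on the day their blastocoel, the fluid cavity that defines a blastocyst, formed. Embryos of day6+1 and day6+2 formed the cavity on day 6 and stayed in culture for 1 or 2 extra days, and those of day7+1 formed it on day 7 and stayed 1 extra day. Embryos of day6+1 and day7 were therefore collected on day 7, and those of day6+2, day7+1 and day8 on day 8. For the day6, day6+2 and day8 groups, the labels state semen of a single bull and co-culture on VERO cells, a monkey kidney line; for the other groups they give no growth protocol. The labels name no genetic change and no drug in any group. The labels call the arrays biological replicates but give neither the number of embryos per array nor separate cultures, so the p-values below measure the spread between these samples. An array sums whole embryos, so fewer cells of a type and less RNA per cell cannot be told apart.

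DNA replication starts at origins, where the origin recognition complex, with CDC6 and CDT1, loads the ring-shaped MCM2-7 helicase in G1 phase. CDC45 and the GINS complex join the ring to form the active helicase, after which polymerase alpha with its primase starts each strand, and polymerases delta and epsilon extend it on the sliding clamp PCNA. Many of these genes are targets of the E2F factors and are read together in cycling cells, and cleaving embryos also carry a maternal store of their transcripts.

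Most of the genes were well measured. Of the 42, 38 (90.5%) were brighter on all 18 arrays than 95% of that array's negative controls, against 51.0% of all features. The exceptions were MCM10, brighter on 17 arrays, POLA2 on 16, POLE on 11 and POLD1 on 10. The levels below are log2 normalised intensities, and since probes differ in brightness, no gene's level is set against another's. Between its lowest and highest array a gene spanned from 0.46 log2 (RRM1) to 2.33 log2 (MCM5), with a median of 1.08 against 1.00 over all features.

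Over all features, arrays correlated at 0.953 to 0.982. The main axis of variation (19.1% of the variance) separated 5 arrays from the rest, namely replicate 1 of day7, replicate 1 of day6+1 and all 3 of day8. None of the 42 genes followed that axis beyond a correlation of 0.8 in either direction over the 18 arrays; the extremes were CDC45L at -0.76 and MCM2 at 0.72. Summed intensity of 11 trophectoderm markers, all above the controls on every array, was 143515 to 187725 in day6, 258115 to 272432 in day6+2 and 219032 to 249074 in day8. The same sum for 7 epiblast markers was 29612 to 33842 in day6, 19548 to 21527 in day6+2 and 23263 to 26218 in day8. Of the trophectoderm markers, CDX2, KRT19, TFAP2A, IFNT and PTGS2 were higher in day6+2 than in day6 at a limma adjusted p under 0.05. KRT8 and TFAP2C stood at -0.00086 and -0.21 log2 units there, so the sum does not stand for each marker. The epiblast markers did not move together: in day6+2 vs day6, KLF4, DPPA3 and POU5F1 fell by 1.71, 1.31 and 1.09 log2 units, and NANOG and TDGF1 rose by 2.50 and 2.69 (limma adjusted p between 0.000203 and 0.0156). Summed intensity of 5 hypoblast markers was 73030 to 79525 in day6, 68377 to 73857 in day6+2 and 62123 to 75357 in day8. FN1 was the brightest of them, at a mean of 15.87 log2, so this sum mostly follows FN1. Of the 5 hypoblast markers, PDGFRA was at -0.90 in day6+2 vs day6 (limma adjusted p = 0.0180). GATA4 was at -2.47 in day8 vs day6 (limma adjusted p = 0.0271) but at 0.07 in day6+2 vs day6. HNF4A stood at 0.71 and 0.33 in day6+2 and day8 against day6, without passing. The part of these shifts in the results below was not tested. Of the markers of cells that might accompany the embryos, the summed cumulus and granulosa level (6 of 9 genes kept; AMH, FOXL2 and HAS2 were too dim) lay between 1513 and 2406 in all groups, with 1623 to 1690 in day6 and 1902 to 2406 in day6+2. For fibroblast and kidney epithelium (8 of 10 kept; DCN was too dim) it lay between 2784 and 5093.

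Few of the replication genes differed between the groups by more than the spread between arrays. GINS1 fell with extra days in culture, and ORC1L was lower in embryos that formed their cavity on day 8 than in those that formed it on day 6. At a fixed formation day, each extra day is also a later collection day. The fall of GINS1 therefore cannot be assigned to extra culture rather than to age at collection. Day8 and day6 also differ in collection day and share no slide, so formation day cannot be told apart from these there. Nor did day7+1 share a slide with day7, day7 with day6, or day8 with day6+2. Slide cannot be told apart from group in those comparisons either, and the interaction below also uses day7+1 minus day7. None of the 42 genes passed as higher in any of the 12 comparisons made. A gene was called where limma's moderated test gave a Benjamini-Hochberg adjusted p under 0.05 over all 34283 features.

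**Figure D1:**
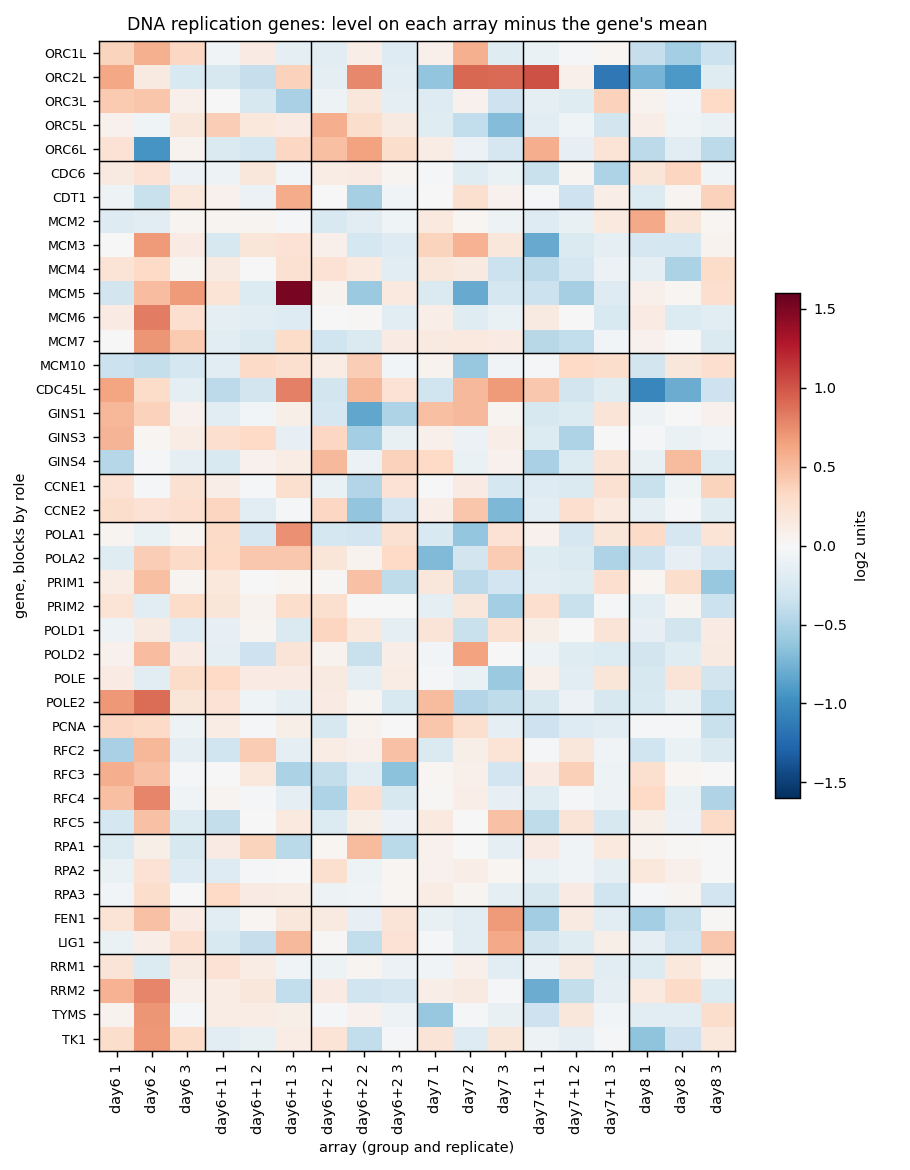
Level of each of the 42 genes on each of the 18 arrays minus that gene's mean over the arrays, in log2 units (red higher, blue lower), with genes in blocks by role and arrays in columns by group. The day6 columns hold the highest group mean for 18 of the 42 genes and the day7+1 columns the lowest for 13.

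After 2 extra days (day6+2 vs day6), 1 of the 42 genes passed, lower, where 3.59% of all features passed in either direction and 1.29% were lower. At an unadjusted p under 0.05 there were 9 lower and 3 higher genes, where 6.17% of features were lower and 6.95% higher. Of the 42 differences, 32 were below 0 (52.9% of all features were), with a median of -0.13 against -0.02 over all features and -0.03 over the 17469 features above the controls on every array. The 95% interval of the difference stayed within 1 log2 unit of 0, a doubling or halving, for 35 genes. The groups did not overlap for 8 genes, 6 lower and 2 higher, against 9.09% and 9.03% of all features. Over the features above the controls on every array, 12.8% were lower without overlap and 25.4% did not overlap in either direction. For the 42 genes these shares were 14.3% and 19.0%. Lower at an unadjusted p under 0.05 were 9.67% of those features and 21.4% of the 42 genes.

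Between the embryos that formed their cavity last and first (day8 vs day6), again 1 gene passed, lower, against 1.48% of features in either direction and 0.531% lower. At an unadjusted p under 0.05, 8 genes were lower and 1 higher, against 6.75% and 6.27% of features. The differences were below 0 for 33 of 42 genes (52.4% of features), with a median of -0.25 against -0.02 over all features and -0.03 over those above the controls on every array. The groups did not overlap for 8 genes, all lower, where 9.46% of features were lower and 8.08% higher without overlap. Over the features above the controls on every array, 13.4% were lower without overlap and 10.3% lower at an unadjusted p under 0.05. Both shares were 19.0% for the 42 genes. Both comparisons use the same day6 arrays, so their values are not independent.

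**Figure D2:**
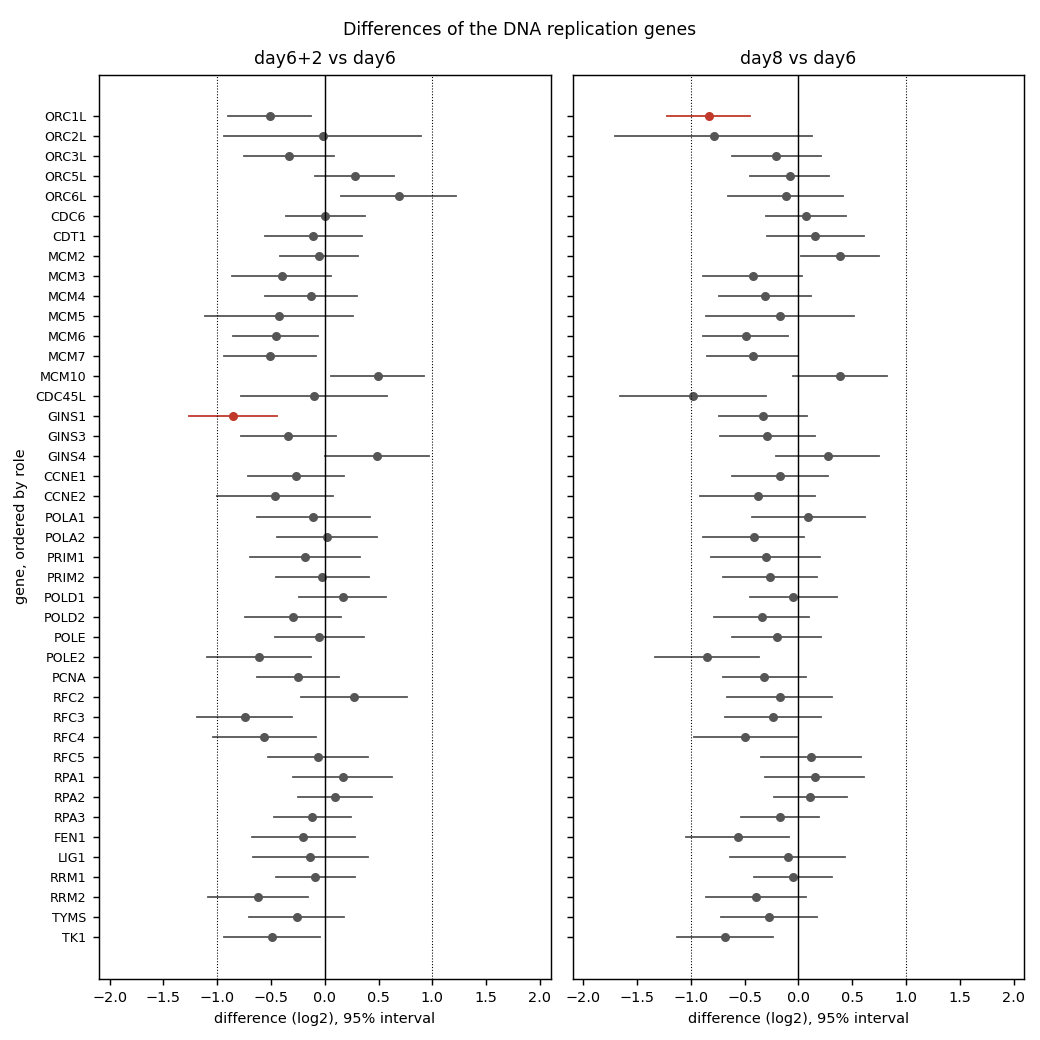
Difference in log2 level of each of the 42 genes, day6+2 minus day6 on the left and day8 minus day6 on the right, with points for the fitted difference and lines for its 95% interval; red marks genes with an adjusted p under 0.05. GINS1 on the left (-0.85) and ORC1L on the right (-0.84) are the 2 red points, and dotted lines stand at 1 log2 unit either side of 0.

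Among the origin recognition genes, ORC1L encodes the largest subunit, an ATPase whose level in human cells falls after S phase begins. It read 11.44, 11.65 and 11.42 in day6 and 10.71, 10.55 and 10.74 in day8. Levels were 11.03, 11.21 and 10.93 in day6+1 and 10.90, 11.19 and 10.88 in day6+2. In day7 they were 11.17, 11.65 and 10.89, and in day7+1 10.98, 11.06 and 11.12. All 3 day8 arrays lay below every other array of the series, and day7 spread across nearly the whole range of the other groups. The day8 minus day6 difference was -0.84 ± 0.19 (SE, 3 arrays a group), a ratio of 0.560, with limma's adjusted p = 0.0272.

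No slide held arrays of both day6 and day8: with the slide as a fixed block the difference was -0.56 (limma adjusted p = 0.622), and with each array centred on its median in place of quantile normalisation it was -0.66 (limma adjusted p = 0.145). Leaving out 1 of the 6 arrays in turn gave -0.88 to -0.76, and the call held in 2 of these 6 fits. The second ORC1L probe was above the controls on 1 array and differed by -0.11. The day6+2 minus day6 difference of ORC1L was -0.51 ± 0.19 without overlap (limma adjusted p = 0.170).

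The other origin genes showed no shared direction in day6+2. Their differences from day6 ran up to 0.69 ± 0.26 for ORC6L, the smallest subunit (limma adjusted p = 0.192), and its other probes read -0.04 and -0.27. In day8 vs day6 all 5 origin genes were below 0 by their brightest probe, with a median of -0.21. Other probes went the other way there: ORC2L stood at -0.79 by its brightest probe and at 0.35 and 0.10 by its others, and ORC6L at -0.12 against 0.10 and -0.53. ORC2L, a core subunit, was the least even of them, from 8.28 to 10.43 over the arrays and with both ends within day7+1.

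The licensing factors CDC6 and CDT1, which load the helicase, did not pass in any comparison. CDT1 had the smaller p of them in day6+2 vs day6, at -0.11 ± 0.22 (limma adjusted p = 0.932). CDC6 stayed between 9.05 and 9.89 on all arrays.

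The 6 MCM2-7 helicase genes were all below 0 in day6+2 vs day6, with a median of -0.41, and none passed. MCM7, a ring subunit, had the smallest p of the set, at -0.51 ± 0.20 (limma adjusted p = 0.241). It read 10.21, 10.92 and 10.64 in day6 and 9.90, 9.99 and 10.35 in day6+2, and the groups overlapped. In day8 vs day6, 5 of the 6 were below 0, with a median of -0.37. In day7+1 vs day7, 4 of 6 were below 0 and MCM3, another ring subunit, stood at -0.76 ± 0.22 (limma adjusted p = 0.388): 10.12, 10.69 and 10.78 against 11.28, 11.48 and 11.10, without overlap.

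MCM2, the subunit used most often as a proliferation marker, went the other way in day8. Its levels were 9.68, 9.71 and 9.93 in day6, 9.92, 9.92 and 9.85 in day6+1, and 9.63, 9.71 and 9.81 in day6+2. They were 10.04, 9.92 and 9.79 in day7, 9.68, 9.76 and 10.03 in day7+1, and 10.49, 10.07 and 9.91 in day8. One day8 array lay within the day6 range and the others above it, and day8 minus day6 was 0.39 ± 0.18 (limma adjusted p = 0.338). The other MCM2 probes disagreed, at -0.76 and 0.27 in the same comparison, and the mean of its probes gave -0.03.

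Of the genes that activate the helicase, GINS1 encodes a subunit of the GINS complex, which links the MCM ring to the polymerases. It read 14.45, 14.28 and 13.99 in day6, 13.74, 13.88 and 14.01 in day6+1, and 13.65, 13.09 and 13.43 in day6+2. It read 14.40, 14.44 and 13.96 in day7, 13.66, 13.70 and 14.12 in day7+1, and 13.83, 13.92 and 13.98 in day8. The 3 day6+2 arrays were the lowest of the series, with 1 of them only just below the lowest arrays of day7+1, and the day8 arrays, of the same collection day, lay above all of them. Day6+2 minus day6 was -0.85 ± 0.20 (95% interval -1.26 to -0.44, 3 arrays a group), a ratio of 0.554, with limma's adjusted p = 0.0141.

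GINS1 also passed in the fit of all 18 arrays on extra days with the formation day as a covariate. There it fell by 0.43 ± 0.09 log2 units per extra day (limma adjusted p = 0.00403). That was the only one of the 42 genes to pass, where 3.76% of features passed and 1.34% were lower; unadjusted, 11 genes were lower and 2 higher (6.18% and 7.30% of features). Over the features above the controls on every array, 9.80% were lower unadjusted. The slope was below 0 for 32 genes (52.6% of features), with a median of -0.10. Tested alone, the difference was -0.37 from day6 to day6+1. Within slide 4, the only slide these groups shared, with 1 array of each, it was 0.02. The difference was -0.49 ± 0.20 from day6+1 to day6+2 (limma adjusted p = 1.00) and -0.44 ± 0.20 from day7 to day7+1 (limma adjusted p = 0.663). None of these steps passed.

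The other GINS1 probes, both above the controls on all arrays, differed by -0.69 and -0.60 in day6+2 vs day6. The brighter of them read 12.31, 12.49 and 11.76 in day6 and 11.84, 11.35 and 11.30 in day6+2, with overlap of 1 array from each group. Within slide 1, which held 2 arrays of each group, the difference of the brightest probe was -1.0, and within slide 4, with 1 of each, it was -0.56. Leaving out 1 of the 6 arrays in turn gave -0.98 to -0.70, and the call held in 3 of these 6 fits. With arrays centred on the median it was -0.67 (limma adjusted p = 0.148), while the per-day slope still passed (limma adjusted p = 0.0381).

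**Figure D3:**
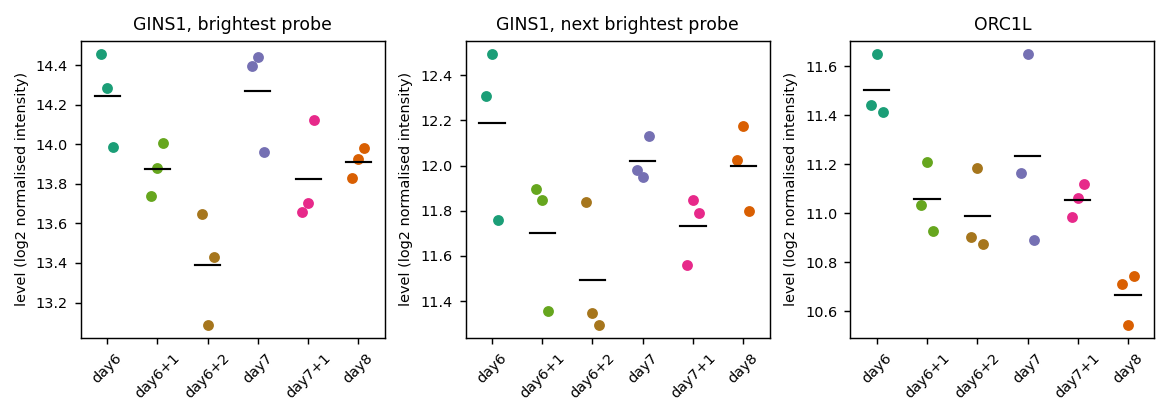
Level of GINS1 by its brightest and its next brightest probe, and of ORC1L, on each array (points; lines are means of 3 arrays), in log2 normalised intensity by group. GINS1 is lowest in day6+2 by both probes, and ORC1L is lowest in day8, where all 3 arrays lie between 10.55 and 10.74.

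None of the other activation genes passed, and their signs were mixed. GINS4, of the same complex, differed by 0.48 ± 0.23 in day6+2 vs day6 (limma adjusted p = 0.375) and GINS3, also of that complex, by -0.34. MCM10, which helps open the helicase, was at 0.49 ± 0.21 without overlap (limma adjusted p = 0.282): 7.26, 7.22 and 7.33 against 7.72, 8.00 and 7.57. CDC45L, the partner of GINS, was uneven between replicates, and stood at -0.98 ± 0.32 in day8 vs day6 (limma adjusted p = 0.137). It read 8.44, 8.69 and 9.15 in day8 and 10.11, 9.78 and 9.34 in day6, and of the 42 genes it followed most closely the axis that sets day8 apart.

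Cyclin E, with its kinase CDK2, drives entry into S phase. CCNE1 read 10.85, 10.60 and 10.86 in day6, 10.73, 10.60 and 10.88 in day6+1, and 10.51, 10.15 and 10.85 in day6+2. Levels in day7 were 10.63, 10.76 and 10.34, in day7+1 10.42, 10.39 and 10.87, and in day8 10.27, 10.55 and 10.98. All groups overlapped, and day6+2 minus day6 was -0.26 ± 0.21 (95% interval -0.71 to 0.18; limma adjusted p = 0.717). CCNE2 was at -0.46 ± 0.26 (limma adjusted p = 0.491).

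Of the 8 polymerase and primase genes, 6 were below 0 in day6+2 vs day6 with a median of -0.08, and 7 in day8 vs day6 with a median of -0.29. The largest difference was that of POLE2, the second subunit of the leading-strand polymerase epsilon. It read 11.97, 12.18 and 11.48 in day6, 11.41, 11.33 and 11.04 in day6+2, and 11.04, 11.16 and 10.88 in day8. Neither later group overlapped day6. The differences were -0.61 ± 0.23 in day6+2 (limma adjusted p = 0.197) and -0.85 ± 0.23 in day8 (limma adjusted p = 0.0669), and neither passed. The catalytic subunits POLD1 and POLE were near the controls, so their values bound little.

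PCNA, the sliding clamp, was held within 0.80 log2 units over all arrays. It read 14.41, 14.39 and 14.01 in day6, 14.21, 14.06 and 14.19 in day6+1, and 13.83, 14.14 and 14.10 in day6+2. In day7 it read 14.53, 14.34 and 13.94, in day7+1 13.75, 13.88 and 13.92, and in day8 14.06, 14.06 and 13.73. By this brightest probe, day7+1 lay below day7 on every array, by -0.42 ± 0.18 (limma adjusted p = 0.657), and every group but day7+1 overlapped day6. The other PCNA probes read -0.11, 0.10 and -0.14 in day7+1 vs day7. Day6+2 minus day6 was -0.25 ± 0.18 (95% interval -0.63 to 0.13; limma adjusted p = 0.673), and all 3 other PCNA probes were also below 0 there, by -0.20, -0.13 and -0.03.

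The clamp is placed on DNA by the RFC complex. RFC3, a small subunit of it, came nearest to the threshold of the genes that did not pass, at -0.75 ± 0.21 in day6+2 vs day6 (limma adjusted p = 0.0579). It read 12.49, 12.37 and 11.88 in day6 and 11.53, 11.73 and 11.25 in day6+2, without overlap. In day8 its levels were 12.17, 11.94 and 11.91. RFC4 was at -0.56 and RFC2 at 0.27 in day6+2 vs day6, so by their brightest probes the subunits did not share a direction. The other RFC2 probe read -0.20 there.

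Replication protein A coats single-stranded DNA at the fork. Its 3 genes differed by -0.11 to 0.17 in day6+2 vs day6 and -0.17 to 0.15 in day8 vs day6. RPA1 had the smallest p of them, at 0.17 ± 0.22 (limma adjusted p = 0.871). For flap removal and ligation, FEN1, the flap endonuclease, was at -0.20 ± 0.23 in day6+2 (limma adjusted p = 0.836) and -0.56 ± 0.23 in day8 (limma adjusted p = 0.264), against day6.

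By their brightest probes, all 4 genes of deoxynucleotide synthesis were below 0 in both comparisons with day6, with medians of -0.37 in day6+2 and -0.33 in day8. None passed, and the probes of TYMS had mixed signs in day6+2 vs day6. RRM2 is the ribonucleotide reductase subunit that limits the enzyme in S phase. It read 13.70, 13.92 and 13.22 in day6 and 13.28, 12.83 and 12.87 in day6+2, with 1 day6+2 array inside the day6 range. The difference was -0.62 ± 0.22 (limma adjusted p = 0.166), and its other probes gave -0.61, -0.56 and -0.07. Per extra day it was -0.35 ± 0.10 (limma adjusted p = 0.0623). TK1, the thymidine kinase of the salvage path, was at -0.49 ± 0.21 in day6+2 and -0.69 ± 0.21 in day8 (limma adjusted p = 0.302 and 0.109).

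In 3 comparisons of embryos with the same collection day, none of the 42 genes passed; day7+1 was not compared with day6+2. For day7 vs day6+1, limma called 0 of 42 genes and 0% of all features; unadjusted, 4 genes were lower and 0 higher (2.94% and 2.31% of features), and 20 were below 0 (50.2% of features). The widest of these gaps was that of MCM5, a ring subunit, at -0.95 ± 0.33 (limma adjusted p = 0.892), with levels of 10.91, 10.33 and 10.85 in day7 and 11.36, 10.92 and 12.66 in day6+1. One day6+1 array stood far above the others there. For day8 vs day7+1, limma again called 0 genes and 0% of features; 3 were lower and 2 higher unadjusted (4.14% and 4.0%), and 17 were below 0 (51.7%). For day8 vs day6+2 it called 0 genes and 0.607% of features, with 2 lower and 3 higher unadjusted (5.44% and 5.05%) and 24 below 0 (51.2%). GINS1 was 0.52 ± 0.20 higher on the fitted scale in day8 than in day6+2 (limma adjusted p = 0.288). ORC6L was at -0.81 ± 0.26 by its brightest probe (limma adjusted p = 0.170), and its other probes read 0.14 and -0.26. ORC1L, called in day8 vs day6, was at -0.32 in day8 vs day6+2 and at -0.39 in day8 vs day7+1.

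The remaining pairwise comparisons by limma gave 0 calls as well. In day6+1 vs day6, where 1.27% of features passed, 7 genes were lower and 1 higher unadjusted (4.74% and 5.13% of features), and 27 were below 0 (52.7%). In day6+2 vs day6+1, where 0% passed, 1 gene was lower and 0 higher (1.62% and 1.75%), and 26 were below 0 (49.6%). In day7+1 vs day7, where 0.0175% passed, 5 were lower and 0 higher (3.43% and 3.72%), namely MCM3, RRM2, PCNA, MCM7 and GINS1, and 25 were below 0 (49.3%). There the groups did not overlap for 6 genes, all lower, against 4.84% of features lower and 5.82% higher. Over the features above the controls on every array, 5.56% were lower without overlap. In day7 vs day6, where 0.289% passed, 6 were lower and 0 higher (5.09% and 4.69%), and 27 were below 0 (51.9%). In day8 vs day7, where 0.0175% passed, 4 were lower and 1 higher (4.77% and 4.36%), and 25 were below 0 (49.8%). Between 39 and 40 of the 42 genes had a 95% interval within 1 log2 unit of 0 in these 5 comparisons. No slide held arrays of both groups in day7+1 vs day7 or in day7 vs day6.

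Whether the first extra day acted differently on embryos that formed their cavity on day 6 and on day 7 was tested as an interaction. Limma called 0 of the 42 genes, against 0.00583% of features, and 3 were higher and 0 lower unadjusted, where 3.15% of features were higher and 3.59% lower. They were ORC3L, MCM6 and RFC3. The interaction was below 0 for 26 genes (47.9% of features). The standard error of a difference was larger here, with a median of 0.30 against 0.21 for a pair of groups, and 29 of 42 intervals stayed within 1 log2 unit of 0.

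The list's own level on each array, taken as the median over the 42 genes of the difference from the gene's mean, was highest in day6. It was 0.13, 0.30 and 0.07 in day6, 0.02, 0.01 and 0.12 in day6+1, and 0.04, 0.01 and -0.05 in day6+2. It was 0.06, 0.04 and -0.09 in day7, -0.18, -0.14 and -0.05 in day7+1, and -0.13, -0.07 and -0.03 in day8. All arrays of day6+2, day7, day7+1 and day8 lay below the lowest day6 array, and day6+1 overlapped day6. The pooled SD between replicates was 0.07. These shifts depended on the scaling. With arrays centred on the median, the median difference was -0.02 in day6+2 vs day6 (22 of 42 below 0) and -0.09 in day8 vs day6 (25 of 42), and that of day6+1 vs day6 changed sign, from -0.08 to 0.08. With the slide as a fixed block, day8 vs day6 was -0.05.

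**Figure D4:**
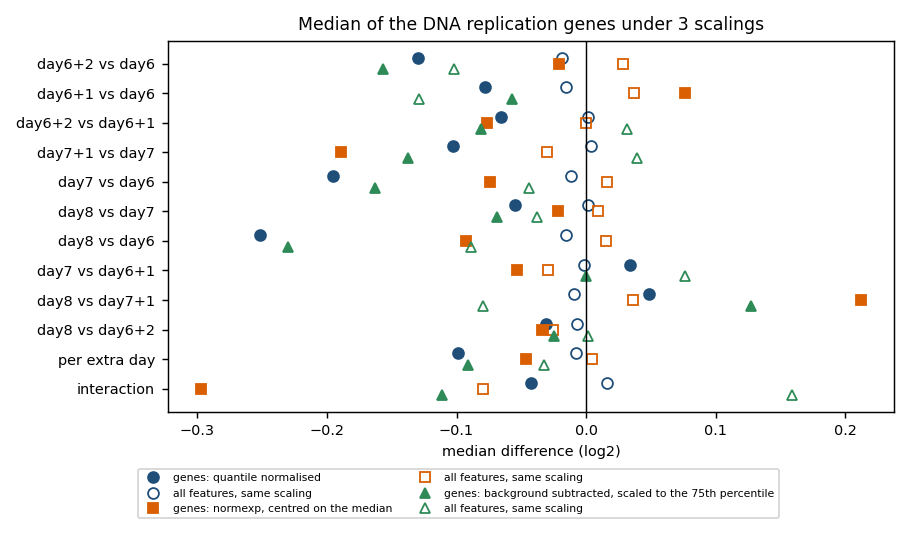
Median log2 difference of the 42 genes (filled) and of all features (open) in each of the 12 comparisons, under quantile normalisation (circles), centring on the median (squares) and scaling to the 75th percentile (triangles). The median of the genes in day8 vs day6 is -0.25 with quantile normalisation and -0.09 with centring, and under 75th percentile scaling the median of all features itself moves.

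Where a gene had more than one probe, the probes often differed in sign. Over the 28 other kept probes of 14 genes, 16 had the sign of their gene's brightest probe in day6+2 vs day6 and 19 in day8 vs day6. All probes of GINS1, PCNA and RRM2 were below 0 in day6+2 vs day6, while those of RFC5, ORC6L and TYMS had mixed signs.

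Genes that act beside these were measured in 4 lists, 74 genes in all. In day6+2 vs day6, 2 passed, both lower, against 3.59% of features: SAMHD1, which breaks down deoxynucleotides, at -0.96 ± 0.23 (limma adjusted p = 0.0184; its other probe -0.35), and CHEK1, the kinase that guards stalled forks, at -0.71 ± 0.19 (limma adjusted p = 0.0427). No gene passed among the 24 of origin firing and G1/S control or the 29 of other fork and chromatin assembly functions. CHEK1 was also lower in day8 vs day6, at -0.80 (limma adjusted p = 0.0411). SAMHD1 fell by 0.52 log2 units per extra day (limma adjusted p = 0.00259). The CHEK1 calls in day6+2 and in day8 were lost with 75th percentile scaling (limma adjusted p = 0.115 and 0.0926), with arrays centred on the median (0.348 and 0.277) and with the slide as a fixed block (0.0526 and 0.350). Leaving out 1 of the 6 arrays in turn, they held in 0 and in 1 of 6 fits. The SAMHD1 call in day6+2 vs day6 was lost with centring (limma adjusted p = 0.0661) and held in 3 of 6 fits with 1 array left out, while its call per extra day held in all 18.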

How the data were processed

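The deposited files are scanner outputs of 1-colour arrays with a foreground and a background intensity per spot at 532 nm, per the file headers, and a value table on a log2 scale that the authors made from them. The submitters' processing notes, given for 9 arrays, name R 3.2.4 and limma 3.28.5. Per the labels' protocols, RNA was amplified in 2 rounds, which favours the 3′ end of transcripts and can make probes of a gene differ. Whether it did so here was not tested. From the intensities, with limma 3.58.1 under R 4.3.3, normexp background correction (offset 50) on the spot medians, quantile normalisation between arrays and log2 were applied. Probes brighter than 95% of an array's negative controls, on at least 3 arrays, were kept (40006 of 43794), and each gene was read by its brightest probe. Named genes are symbols of the platform's gene table. One model of 6 group means was fitted to all 34283 features with empirical Bayes, with Benjamini-Hochberg adjustment within each comparison, and a second with extra days and formation day. Simulated data with known differences were used to test the fit. Median foreground intensities per array were 157 to 302 over a background of 14 to 21, and 72.0% to 81.1% of probes lay above the controls; 3 arrays a group limit the precision.

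The members and lists were chosen with earlier results of these data known. Array values are given for each gene that passed in any of the 12 comparisons and for PCNA, MCM2 and CCNE1. Each role's gene with the smallest p in day6+2 vs day6 is named too, as are up to 3 passing genes of each related list in that comparison. Other genes named, and the other array values, were chosen after their values were seen. Slides were read from the deposited files' names. Deviations of arrays with the same replicate number correlated at 0.172, 0.114 and 0.235 in day6+2 vs day6+1. In day7 vs day6+1 they correlated at 0.450, 0.107 and 0.235, but there the arrays did not match best with their own replicate number. Fits with that number as a block are among the alternatives, as are other scalings, filters, probe rules, slide blocks and arrays left out.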

Additional observations from a re-analysis of the deposited data

How the results depend on the processing

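GINS1 per extra day kept its call and direction in every alternative run, and no gene called in the 12 comparisons changed sign. For day6+2 vs day6, where 1 gene passed, 0 passed with arrays centred on the median and 2 (GINS1 and RFC3) with the slide as a fixed block or a random block, or with the replicate block; leaving out 1 array gave 0 to 2. It was 0 without day6 replicate 1, day6 replicate 2 or day6+2 replicate 2, and 2 without day6 replicate 3. For day8 vs day6, also 1, it was 0 with centring and with the slide as a fixed block. It was 2 with the replicate block or without both arrays that stand apart (ORC1L and POLE2) and 2 with a fit of those 6 arrays alone (CDC45L and ORC1L); leaving out 1 array gave 0 to 2. It was 0 without day6 replicate 1 or 2 or day8 replicate 1 or 2, and 2 without day6 replicate 3 or day8 replicate 3. Per extra day, 2 passed when a gene's probes were averaged and with the replicate block (RRM2 added), and leaving out 1 array gave 1 to 2 (2 without day6 replicate 1, day6+2 replicate 1 or day6+2 replicate 3). The fit of 6 arrays alone gave 1 (ORC6L) for day8 vs day6+2, and leaving out both arrays that stand apart gave 1 (CDC45L) for day8 vs day7; both were 0 otherwise. The replicate block changed no other call count. The replicate numbers share only a number in most comparisons, so the block there is no pairing. In day6+2 vs day6, CDT1 changed sign without day6 replicate 3 (0.022) and without day6+2 replicate 2 (0.063), and RPA1 without day6+2 replicate 2 (-0.071). Leaving out 1 array in turn gave -0.24 to 0.063 for CDT1 and -0.071 to 0.40 for RPA1. MCM2 in day8 vs day6 was -0.035 with the mean of its probes. The cause of these changes was not tested.

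Median differences of the genes moved by more than the spread between replicates in 22 cases. With centring they were 0.08 for day6+1 vs day6, -0.02 for day6+2 vs day6, -0.07 for day7 vs day6, -0.05 for day7 vs day6+1, -0.19 for day7+1 vs day7, -0.09 for day8 vs day6, 0.21 for day8 vs day7+1 and -0.30 for the interaction. With the slide as a fixed block they were -0.0025 for day6+1 vs day6, -0.15 for day6+2 vs day6+1, -0.04 for day7 vs day6, -0.05 for day8 vs day6, 0.12 for day8 vs day6+2 and -0.12 for the interaction. Scaling to the 75th percentile gave 0.13 for day8 vs day7+1. Within slide 4, day6+1 vs day6 was 0.02, and within slide 1, day6+2 vs day6 was -0.22. Without day6 replicate 3 the medians were -0.16 for day6+1 vs day6, -0.22 for day6+2 vs day6 and -0.33 for day8 vs day6. Without day7 replicate 3 that of day7 vs day6 was -0.096, and without day6+1 replicate 3 the interaction changed sign, from -0.043 to 0.066. Signal near the controls limits POLD1, POLE, POLA2 and MCM10.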

Other observations

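TOP1, the topoisomerase that relieves the twist ahead of forks, was chosen after its values were seen. It was higher in day8 than in day6, by 1.73 ± 0.42 log2 units (limma adjusted p = 0.0417), and than in day6+2, by 2.15 (limma adjusted p = 0.0276), where its list is that of other fork and chromatin assembly functions. Its other probes differed by -0.07 and 0.08 in day8 vs day6, and the mean of its probes gave 0.58 (limma adjusted p = 0.214). Leaving out 1 of the 6 arrays in turn, the call held in 2 of 6 fits for day8 vs day6 (limma adjusted p 0.0481 to 0.174) and in 0 of 6 for day8 vs day6+2 (0.0619 to 0.136). Both calls were also lost with arrays centred on the median (0.0598 and 0.0562) and with the slide as a fixed block (0.594 and 0.485). The level of its brightest probe was among those of 371 features that followed the axis setting day8, day6+1 replicate 1 and day7 replicate 1 apart beyond a correlation of 0.8.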
